A study of Homo sapiens with 4 samples.

Results

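The hnRNP and SR proteins are the main families of sequence-specific splicing regulators, and their genes were followed on all 4 arrays of a study of AK4, a mitochondrial adenylate kinase, in human lung adenocarcinoma cells. Members were the probe sets, small groups of oligonucleotides that read 1 transcript or a few, whose single gene symbol begins with HNRNP or is SRSF with a number, pseudogenes left out. The rule used names and no signal. It gave 116 of 54675 probe sets, which stood for 30 of the 19775 genes read. These were 19 protein-coding hnRNP genes, 10 SR genes and HNRNPD-DT, a noncoding transcript that starts next to HNRNPD. A further 14 probe sets carried an HNRNP or SRSF symbol together with another gene's, and were not used. SRSF2, SRSF9 and HNRNPH2 were listed on such probe sets alone and are not analysed here.

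The groups were CL1-5 cells expressing an AK4 shRNA vector, CL1-5 cells expressing a non-silencing shRNA vector, CL1-0 cells expressing an AK4 vector and CL1-0 cells expressing a control vector, with 1 array each. CL1-0 is a lung adenocarcinoma line and CL1-5 a more invasive line derived from it. All of the cells were stably transduced and kept in puromycin for 2 weeks. The labels do not say whether a culture was a pool or a clone, and do not name the promoter or the shRNA target sequence. With 1 array a group there was no replicate error, no test and no p-value, so precision is limited by having a single array for each.

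Proteins of both families bind short motifs in nascent RNA. SR proteins have an RNA-binding domain and a tail rich in arginine-serine repeats that SRPK and CLK kinases phosphorylate, and they mostly promote use of the exons they bind. Many hnRNP proteins act the other way when bound in or near an exon, and they also package, export and stabilise RNA. Genes of both families are known to limit their own output through exons or introns whose inclusion sends the transcript to nonsense-mediated decay, so different stretches of the same gene need not move together.

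Signals below are the deposited intensities scaled to a common trimmed mean, and a floor was set at a signal of 6.94. The probe set with the highest mean level stood for each gene and is called its main probe set. Of the member probe sets, 94 lay above the floor on all arrays, 11 on some and 11 on none. The main probe set lay above the floor on all arrays for 29 genes. HNRNPD-DT was the exception. Across probe sets, which are not independent, Spearman's rho was 0.990 within CL1-5 and 0.966 within CL1-0. By label the cells are of alveolar type II origin. Of 8 readable type II markers, 5 to 7 lay above the floor on an array, the surfactant gene SFTPC had signals of 24.0 to 30.8, and SLC34A2 was under the floor on all arrays. The type II marker LAMP3 had 160 and 210 on the CL1-0 arrays and was under the floor on the CL1-5 arrays. Between the control arrays of the lines, 6 of 7 measured type II markers were lower in CL1-5, and 1, NAPSA, was higher. The summed signal of 6 epithelial markers was 1783 and 2027 on the CL1-5 arrays, against 52.5 and 51.5 on the CL1-0 arrays, with EPCAM and CDH1 at or below 9.81 on every array. KRT18 made most of that sum, with 1485 and 1681 on the CL1-5 arrays against 10.8 and 12.1 on the CL1-0 arrays, and KRT8 most of the rest, with 258 and 299 against 10.2 and 12.0. Of 3 readable leukocyte markers, PTPRC was under the floor on all arrays. CD3E lay close above it on all, at 7.01 to 8.26. CD14 passed it only on the CL1-5 non-silencing array, at 7.82. The fibroblast marker COL1A1 had signals of 47.4 to 78.3 and DCN 15.0 to 22.3, while COL3A1, LUM and PDGFRA were under the floor on all arrays. COL1A2 passed the floor only on the CL1-5 arrays, at 11.7 and 11.9. The endothelial marker PECAM1 had 53.95 and 45.1 on the CL1-5 arrays and at most 7.12 on the CL1-0 arrays. VWF lay above the floor on all arrays, at 10.4 to 11.5, and CDH5 and KDR were under it on all.

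AK4 was read first as a check of the labels. The brightest probe set had a signal of 442 with AK4 shRNA and 1056 with non-silencing shRNA. In CL1-0 the signal was 111 on the array labelled AK4 vector and 115 with control vector. AK4 was thus lower with shRNA and not higher on the array labelled AK4 vector. The other AK4 probe sets gave log2 ratios of -0.13, -0.25 and -0.09 in CL1-0. Whether the vector lacks the stretch that the probe sets read was not tested, nor was any other reason. Directions drawn from that array rest on its label.

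The comparison in CL1-0 asked how splicing factors differ on the array labelled AK4 vector, where the AK4 signal was not higher. No member gene passed 2-fold in its main probe set, in either direction, among 30 measured, where of 14678 genes 3.22% passed upward and 1.17% downward. At the looser 1.5-fold rule, 6 members were higher and 2 lower, against 12.5% and 6.54% of all genes. The members' median log2 ratio was -0.01, with 15 above 0, beside 0.05 and 56.1% for all genes. The SR genes had a median of 0.15 and the coding hnRNP genes one of -0.08. These counts do not set the members apart from their background. In bulk RNA, fewer cells with a transcript and less of it per cell cannot be told apart.

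Among hnRNP genes, HNRNPUL2, a relative of the scaffold protein HNRNPU, had a signal of 171 on the array labelled AK4 vector and 88.7 with control vector, a log2 ratio of 0.95. Its other probe set gave -0.07, so the gene's higher value rested on 1 probe set. HNRNPA1, which binds exonic silencers and moves between nucleus and cytoplasm, had 1167 on the AK4 vector array against 646 on the control array, a log2 ratio of 0.85. Its other probe sets, 222040_at and 221919_at, gave 0.99 and 0.54, so all of them were higher. HNRNPA1 has many near-identical pseudogenes, and the main probe set, 214280_x_at, is of a type that can cross-hybridise, so its value is uncertain. HNRNPR, a relative of SYNCRIP, had 1741 against 1136, a log2 ratio of 0.62, while its probe set 208765_s_at had 244 against 233, a log2 ratio of 0.07. HNRNPD-DT had 15.3 on the AK4 vector array and 8.15 on the control array, close to the floor, with a log2 ratio of 0.91.

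The lowest hnRNP genes were HNRNPL, HNRNPH3 and HNRNPAB. HNRNPL, which binds CA-rich RNA, had 111 on the AK4 vector array against 205 on the control array, a log2 ratio of -0.89. HNRNPH3, of the family that binds runs of G, had 284 on the AK4 vector array against 507 on the control array, a log2 ratio of -0.83. Its other 3 probe sets lay from -0.59 to -0.50, so all 4 had the same direction. HNRNPAB, read by 1 probe set, had 1688 against 2485, a log2 ratio of -0.56. The next was HNRNPA0, a binder of AU-rich RNA, with 763 against 1051 and a log2 ratio of -0.46, and its other probe sets gave -0.36 and -0.32.

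Among SR genes, SRSF4 had 186 on the AK4 vector array against 116 on the control array, a log2 ratio of 0.69. Its other detected probe set, 242837_at, had 13.6 against 13.8, so that value rested on 1 probe set. SRSF10, known as a splicing repressor when dephosphorylated, had 376 against 243, a log2 ratio of 0.63. Its other probe sets were split, with 204299_at at 0.13 and 225348_at at 0.12 but 210178_x_at at -0.46 and 213594_x_at at -0.86. SRSF3, which also carries mRNA to the export receptor NXF1, was at 0.37, and SRSF1, known as a proto-oncogene, at 0.23. SRSF8, a retrotransposed relative of SRSF2, was lowest at -0.30. SRSF12, SRSF7 and SRSF11 were also below 0, at -0.26, -0.13 and -0.10, and SRSF5 was at 0.11.

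**Figure D1:**
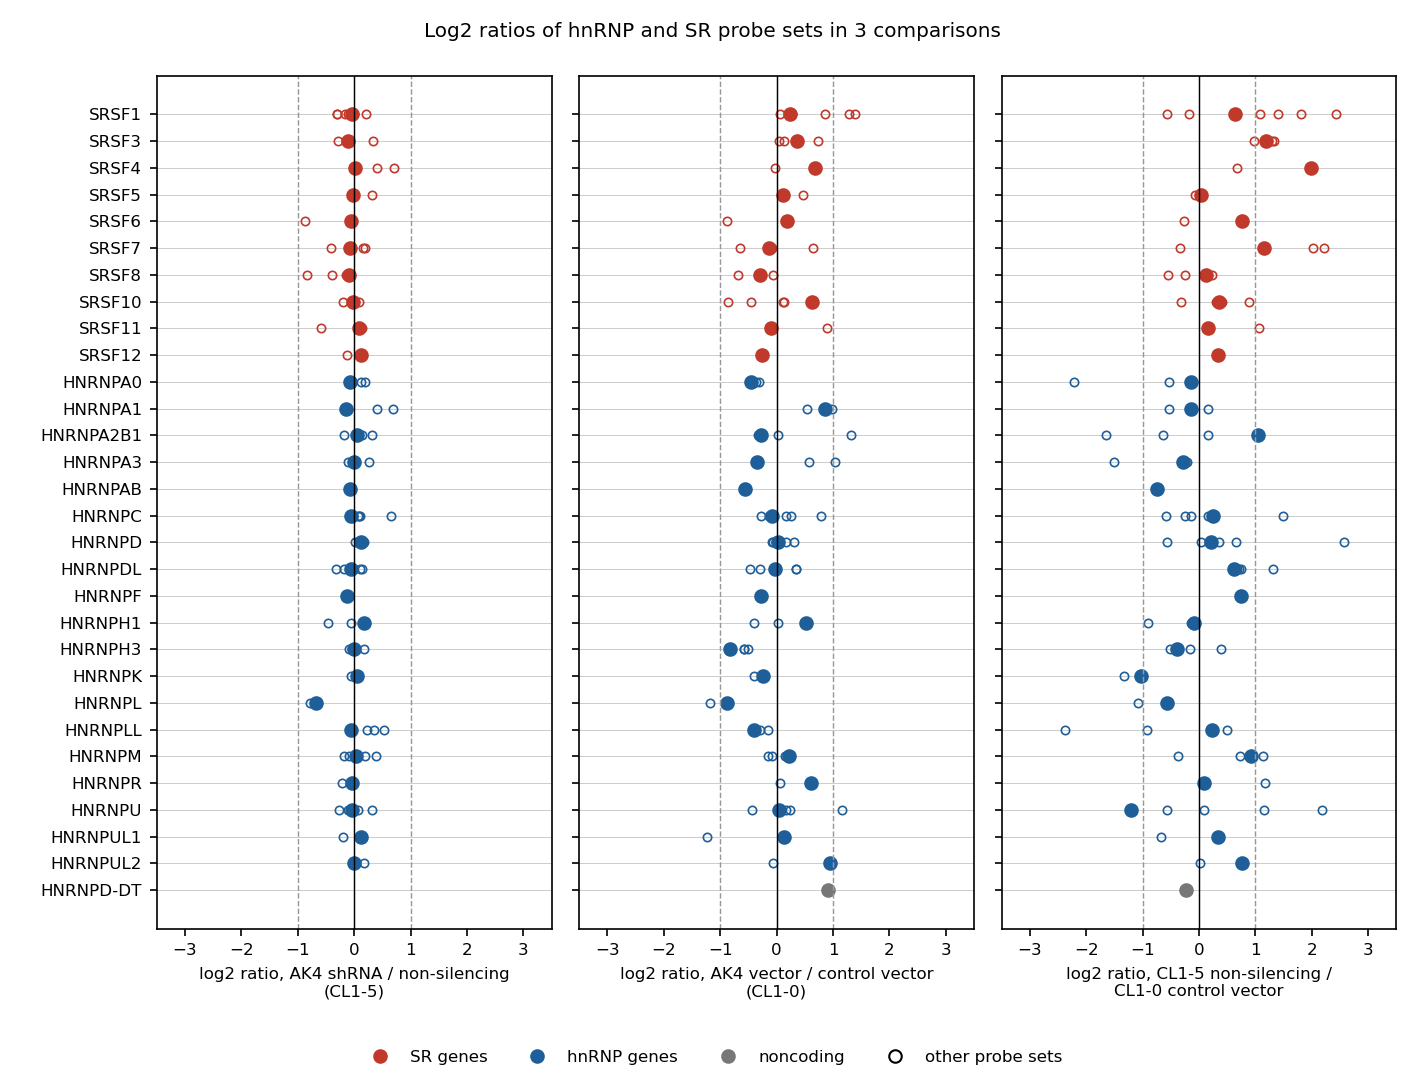
Log2 ratio (x axis) of each hnRNP and SR gene (y axis) in 3 comparisons. Filled points are main probe sets, open points are the gene's other probe sets that both arrays detect above the floor, and dashed lines mark 2-fold. Main probe sets stay within 2-fold in both AK4 comparisons, and all 10 SR genes lie right of 0 in the comparison of the lines.

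Single probe sets moved further than the genes' main probe sets. Of 95 member probe sets above the floor on both CL1-0 arrays, 5 passed 2-fold upward and 2 downward, against 3.33% and 1.85% of all such probe sets. At 1.5-fold, 17 were higher and 9 lower, against 12.8% and 8.43%. The higher ones were 226419_s_at of SRSF1 at 1.38, 225107_at of HNRNPA2B1 at 1.33, 229246_at of SRSF1 at 1.29, 235603_at of HNRNPU at 1.17 and 211929_at of HNRNPA3 at 1.03. The lower ones were 209675_s_at of HNRNPUL1 at -1.23 and 202072_at of HNRNPL at -1.19. Except for HNRNPL, these genes had a main probe set between -0.35 and 0.23.

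For HNRNPA2B1, a partner of HNRNPA1 on exonic silencers, 225107_at had 168 on the AK4 vector array against 67.1 on the control array, while the main probe set, 205292_s_at, had 814 against 989.8. For SRSF1, 226419_s_at had 255 against 97.9, while the main probe set, 211784_s_at, had 1073 against 913. For HNRNPUL1, known from its binding to an adenoviral protein, 209675_s_at had 204 against 478, while 208713_at had 565 against 514. In each of these genes the main probe set stayed under 1.5-fold while a dimmer one passed 2-fold, and in SRSF1 a further one, 229246_at, did so as well. Among 26 member genes with more than 1 probe set over the floor, the log2 ratios of a gene spanned 1 or more in 10, or 38.5%, beside 14.6% of all such genes. Besides those above, they were HNRNPC with -0.27 for 212626_x_at to 0.78 for 235500_at, HNRNPA3 with -0.35 to 1.03, HNRNPU with -0.44 to 1.17, SRSF7 with -0.66 to 0.64, SRSF10, SRSF6 and HNRNPUL2. Member genes have up to 9 probe sets, and a span widens with their number, which was not matched between members and all genes. Pooled over genes, the SD of probe sets within a gene was 0.46 for members and 0.41 for all genes. Which exons or untranslated stretches these probe sets read is not given in the sources used here.

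The suffix of a probe set name says how its oligonucleotides were chosen. Those ending in _at alone were picked as unique to a transcript, and those ending in _s_at, _x_at or _a_at can match several transcripts or genes. Among member probe sets above the floor on both CL1-0 arrays, the 41 ending in _at alone had a median log2 ratio of 0.17 and the other 54 had one of -0.09. Over all genes these medians were 0.06 and 0.02. With AK4 shRNA in CL1-5 the member medians were 0.089 and -0.046 in the same order, beside -0.003 and -0.019 over all genes. Between the lines they were 0.16 and 0.18, beside 0.14 and 0.27 over all genes.

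The comparison in CL1-5 asked how the same genes differ when AK4 is silenced. Member genes were nearly level. Among 29 measured, none passed 2-fold, where of 15314 genes 0.0914% passed upward and 0.0131% downward. At 1.5-fold none was higher and 1 was lower, against 0.868% and 0.542% of all genes. The member genes lay between -0.68 and 0.17 with a median of -0.03, and 11 were above 0, beside 49.7% of all genes. SR genes spanned -0.10 to 0.13. The median of all genes was -0.00.

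The gene past 1.5-fold was HNRNPL. Its main probe set, 35201_at, had 86.1 with AK4 shRNA against 138 with non-silencing shRNA, a log2 ratio of -0.68, or 62.5% of the non-silencing signal. Its other probe set, 202072_at, had 41.5 with AK4 shRNA against 71.6 with non-silencing shRNA, a log2 ratio of -0.79. Both probe sets were lower, and in rank HNRNPL was number 28 from the bottom among 15314 genes. The next lowest members were HNRNPA1 with 528 against 587, HNRNPF with 235 against 255 and SRSF3 with 2333 against 2503, at log2 ratios of -0.15, -0.12 and -0.10. The highest were HNRNPH1, a binder of G runs, with 3255 against 2891, SRSF12 with 12.0 against 11.0 near the floor, HNRNPUL1 with 707 against 651 and HNRNPD with 1127 against 1042, at 0.17, 0.13, 0.12 and 0.11. Differences this small lie within the SD of 0.23 between probe sets of a member gene in CL1-5.

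HNRNPL was also the lowest member in CL1-0, so both of its probe sets were lower when AK4 was to be raised and when it was silenced. In CL1-0, 202072_at had 66.3 on the AK4 vector array against 151 on the control array, a log2 ratio of -1.19, and in rank the main probe set put HNRNPL at number 268 from the bottom among 14678 genes. Over the 8 alternatives and the reported setting the gene's log2 ratio lay between -1.04 and -0.85 in CL1-0 and between -0.73 and -0.66 in CL1-5. Averaging its probe sets gave -1.04 in CL1-0, past 2-fold.

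The HNRNPL promoter is shown because the gene was lower in both AK4 comparisons. RefSeq (GRCh38.p14) lists starts at 2 places, and each window runs from 250 bases before to 50 after a start. Capitals mark matches on either strand to 5 motifs. The CCAAT box was searched as CCAAT. The GC box was searched as GGGCGG. The E-box was searched as CACGTG. The TATA box was searched as TATAAA. An E2F-like motif was searched as TTTNNCGC.
HNRNPL start A, chr19:38852298-38852597, minus strand: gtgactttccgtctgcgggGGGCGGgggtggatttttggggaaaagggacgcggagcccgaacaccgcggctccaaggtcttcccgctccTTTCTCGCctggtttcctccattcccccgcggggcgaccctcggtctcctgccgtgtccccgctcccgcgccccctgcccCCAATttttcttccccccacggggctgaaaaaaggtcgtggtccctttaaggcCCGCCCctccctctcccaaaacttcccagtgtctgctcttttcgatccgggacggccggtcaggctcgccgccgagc
HNRNPL start B, chr19:38849937-38850236, minus strand: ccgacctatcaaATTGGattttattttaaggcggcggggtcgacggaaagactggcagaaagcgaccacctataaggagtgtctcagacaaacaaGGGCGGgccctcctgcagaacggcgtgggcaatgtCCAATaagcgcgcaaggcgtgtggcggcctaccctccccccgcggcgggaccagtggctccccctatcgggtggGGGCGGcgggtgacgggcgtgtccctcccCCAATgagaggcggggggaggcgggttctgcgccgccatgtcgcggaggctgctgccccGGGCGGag
Start A held 1 CCAAT box, 2 GC boxes and 1 E2F-like match, and start B held 3 CCAAT boxes and 3 GC boxes. In the whole table of 35116 promoters, 34.6% held the CCAAT box, 45.0% the GC box, 7.26% the E-box, 6.89% the E2F-like motif and 11.5% the TATA box. Among the 22198 of protein-coding genes these shares were 34.7%, 56.3%, 8.34%, 8.33% and 9.47% in the same order. Among 42 windows of the 28 coding members with an entry, 21 held the CCAAT box, 26 the GC box, 7 the E-box, 8 the E2F-like motif and 6 the TATA box. In those windows 2 pairs of a GC box and an E2F-like match overlapped, and no other pair of motifs did. The 7 windows with an E-box belonged to hnRNP genes, among 29 hnRNP windows, and 0 of 13 SR windows held one. Windows of the same gene can overlap, and a match describes letters only.

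**Figure D2:**
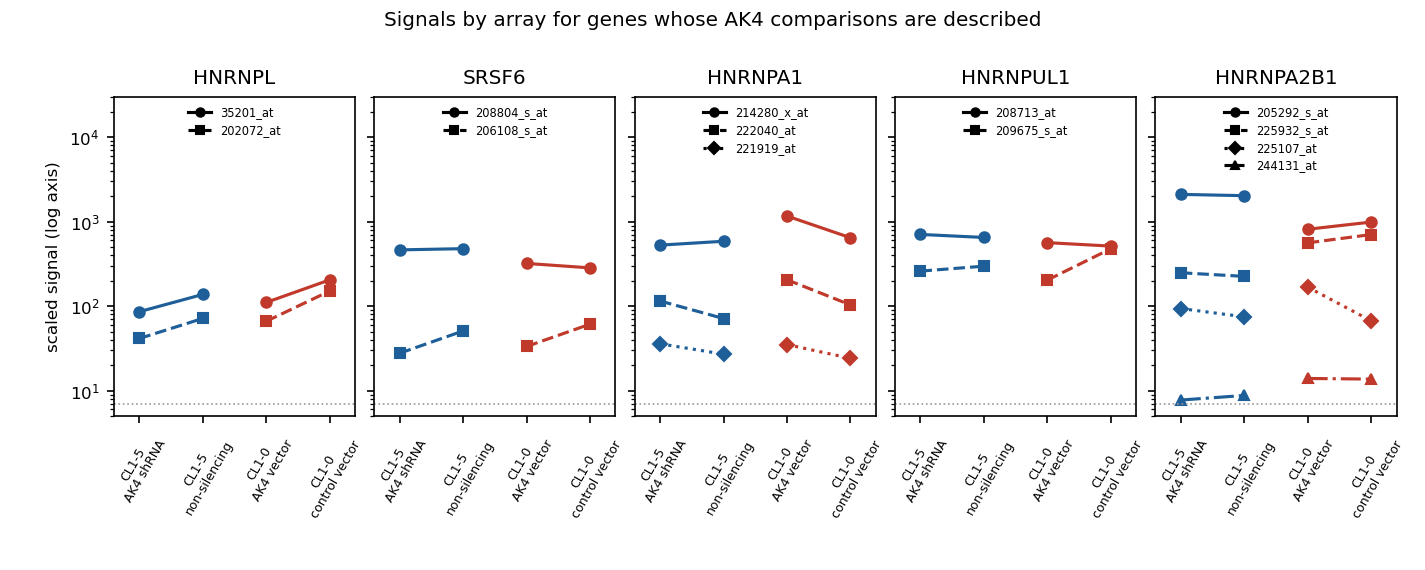
Scaled signal (y axis, log scale) on each of the 4 arrays (x axis) for probe sets of 5 member genes. Up to 4 of the brightest probe sets above the floor on all arrays are drawn per gene, lines join the arrays of a cell line and the dotted line is the floor. Both HNRNPL probe sets and 206108_s_at of SRSF6 are lower with AK4 shRNA and on the AK4 vector array than on the matching control, and 222040_at of HNRNPA1 is higher on both.

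SRSF6 showed the same pattern in 1 of its probe sets. For 206108_s_at the signal was 27.8 with AK4 shRNA against 50.9 with non-silencing shRNA, which is -0.87 on the log2 scale. The CL1-0 signal was 33.4 on the AK4 vector array against 61.3 on the control array, a log2 ratio of -0.88. The main probe set, 208804_s_at, gave -0.05 and 0.18 for the same pairs, so the probe sets of SRSF6 disagreed. On averaging them the gene was at -0.46 in CL1-5 and -0.35 in CL1-0. In CL1-5 206108_s_at was number 47 from the bottom among 27609 probe sets.

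The mirror was seen for HNRNPA1. Its probe set 222040_at had 115 with AK4 shRNA against 71.4 with non-silencing shRNA, a log2 ratio of 0.69. In CL1-0 the same probe set had 206 on the AK4 vector array against 104 on the control array, a log2 ratio of 0.99. The main probe set did not share that direction in CL1-5, at -0.15. Another probe set, 221919_at, was at 0.41 in CL1-5. Close to the floor, 235500_at of HNRNPC, which binds U-rich RNA, was at 0.65 in CL1-5 and 0.78 in CL1-0.

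No member probe set passed 1.5-fold in opposite directions in the AK4 comparisons, and AK4 itself was not higher on the AK4 vector array. Of 22824 probe sets above the floor on all arrays, 94 were member probe sets. At least 1.5-fold lower in both AK4 comparisons were 37 of all of them and 3 members, both HNRNPL probe sets and 206108_s_at of SRSF6. At least 1.5-fold higher in both were 66 of all and 2 members, 222040_at and 235500_at. Higher on the AK4 vector array and lower with shRNA were 10 of all and 0 members, and the mirror gave 6 and 0. The AK4 comparisons share no array. Each pair was a single pair of cultures, and whether the shared direction came from AK4, from vectors or from culture was not tested.

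**Figure D3:**
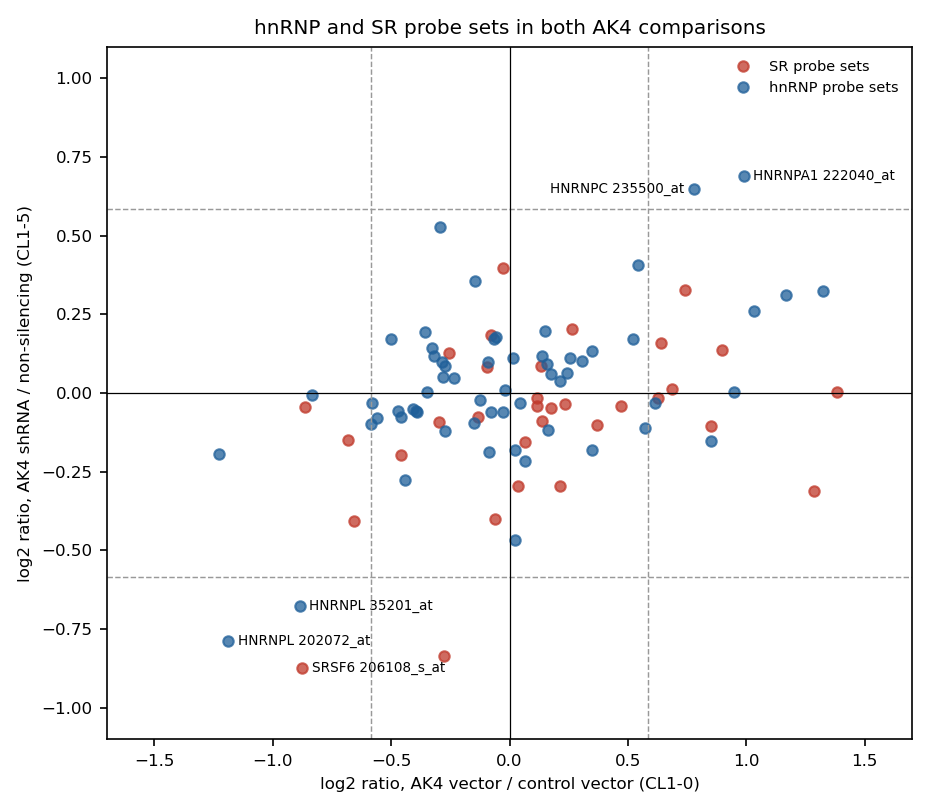
Log2 ratio on the AK4 vector array over the control vector array in CL1-0 (x axis) against AK4 shRNA over non-silencing shRNA in CL1-5 (y axis) for 94 member probe sets above the floor on all arrays. Dashed lines mark 1.5-fold. Labelled points lie past 1.5-fold in the same direction in both, and none lies past it in opposite directions.

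In CL1-5 some single SR probe sets were lower besides that of SRSF6. For SRSF8, 238929_at had 18.3 with AK4 shRNA against 32.8 with non-silencing shRNA, a log2 ratio of -0.84, while its main probe set was at -0.09. For SRSF7, a zinc-knuckle SR protein that also serves mRNA export, 213649_at had 79.7 against 106, a log2 ratio of -0.41, and in CL1-0 it was at -0.66. The main SRSF7 probe set was at -0.08 in CL1-5 and -0.13 in CL1-0. Of 104 member probe sets above the floor on both CL1-5 arrays, 5 were at least 1.5-fold lower and 3 higher, against 1.06% and 0.974% of all such probe sets. At 2-fold 0 passed in either direction, against 0.0688% upward and 0.0869% downward. The rest were 239512_at of SRSF4 at 0.70, with 14.4 against 8.87, and 213742_at of SRSF11 at -0.59, with 30.1 against 45.3. Among 27 member genes with more than 1 probe set over the floor, none had log2 ratios that spanned 1 or more in this comparison. Over all such genes 1.38% did.

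The control arrays of the lines were then set side by side. Of 30 member genes, 4 passed 2-fold upward in CL1-5 and 2 downward, against 17.1% and 14.2% of 15969 genes. At 1.5-fold, 10 were higher and 3 lower, against 30.5% and 23.3%. All 10 SR genes had a log2 ratio above 0. Their median was 0.50, with 3 past 2-fold and 5 past 1.5-fold upward and none downward, while SRSF5, SRSF8 and SRSF11 lay near the median of all genes. Of 33 SR probe sets detected on both of these arrays, 8 were below 0. For the 19 coding hnRNP genes the median was 0.08, with 10 above 0. Over all genes the median was 0.13 and 56% were above 0. Of 95 member probe sets detected on both of these arrays, 20 passed 2-fold upward and 8 downward, against 20.2% and 12.9% of all such probe sets. The count of SR genes above 0 was 9 of 10 after quantile normalization, loess, centring on the median of all genes or averaging a gene's probe sets. It was 6 of 8 when _x_at and _s_at probe sets were left out.

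The SR genes past 2-fold were SRSF4, SRSF3 and SRSF7. SRSF4, a large SR protein, had 456 on the CL1-5 non-silencing array against 116 on the CL1-0 control array, a log2 ratio of 1.98. Averaging its probe sets gave 0.60, and 242837_at gave 0.67. SRSF3 had 2503 in CL1-5 against 1104 in CL1-0, a log2 ratio of 1.18, and its other probe sets gave 1.30, 0.97 and 1.32. SRSF7 had 1727 against 781, a log2 ratio of 1.14, with 2.02 for 201129_at, 2.21 for 211439_at and -0.33 for 213649_at. SRSF3 and SRSF7 stayed at least 2-fold higher under each of the 8 alternatives.

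Promoters of these SR genes are shown as members with the same direction in CL1-5, with capitals as above.
SRSF3, chr6:36594112-36594411, plus strand: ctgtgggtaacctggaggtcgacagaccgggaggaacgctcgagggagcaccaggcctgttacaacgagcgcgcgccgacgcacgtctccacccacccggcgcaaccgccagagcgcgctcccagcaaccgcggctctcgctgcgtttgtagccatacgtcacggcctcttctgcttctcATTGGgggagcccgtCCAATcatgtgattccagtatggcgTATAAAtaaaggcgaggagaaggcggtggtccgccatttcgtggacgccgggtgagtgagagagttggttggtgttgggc
SRSF4, chr1:29181851-29182150, minus strand: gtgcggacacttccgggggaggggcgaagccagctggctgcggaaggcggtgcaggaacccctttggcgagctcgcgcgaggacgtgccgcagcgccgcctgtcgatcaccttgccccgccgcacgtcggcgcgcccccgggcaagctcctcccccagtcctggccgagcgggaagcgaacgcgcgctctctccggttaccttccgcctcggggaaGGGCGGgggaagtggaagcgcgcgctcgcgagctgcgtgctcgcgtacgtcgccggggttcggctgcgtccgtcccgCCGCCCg
SRSF7, chr2:38751312-38751611, minus strand: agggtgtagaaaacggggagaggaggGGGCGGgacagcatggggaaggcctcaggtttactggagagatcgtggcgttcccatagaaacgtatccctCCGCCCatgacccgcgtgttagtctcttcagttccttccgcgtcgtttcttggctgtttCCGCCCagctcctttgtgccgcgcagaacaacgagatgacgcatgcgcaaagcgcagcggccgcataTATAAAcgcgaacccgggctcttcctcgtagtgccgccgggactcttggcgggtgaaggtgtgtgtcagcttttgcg
SRSF3 held 2 CCAAT boxes and 1 TATA box, SRSF4 held 2 GC boxes, and SRSF7 held 3 GC boxes and 1 TATA box. RefSeq gives SRSF7 a further, overlapping window. No motif searched was present in all of them.

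The other SR genes differed less between the lines. SRSF6 had 479.6 in CL1-5 against 284 in CL1-0, a log2 ratio of 0.76, and its probe set 206108_s_at gave -0.27. SRSF1 had 1425 against 913, a log2 ratio of 0.64. Its probe sets spread widely, with 201742_x_at at 2.43, 208863_s_at at 1.81 and 226419_s_at at -0.57. SRSF10 was at 0.35, SRSF12 at 0.34 with signals of 11 and 8.68 close to the floor, SRSF11 at 0.15, SRSF8 at 0.13 and SRSF5 at 0.03.

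The hnRNP genes moved both ways between the lines. HNRNPA2B1 had 2032 in CL1-5 against 989.8 in CL1-0, a log2 ratio of 1.04, but its probe set 225932_s_at had 225 against 704, a log2 ratio of -1.64, and averaging its probe sets turned the gene to -0.27. HNRNPM, a binder of GU-rich RNA, had 848 against 449, a log2 ratio of 0.92, with 1.13 for 200072_s_at and -0.38 for the dim 1555843_at. HNRNPF and HNRNPDL were at 0.75 and 0.63, and HNRNPUL2 at 0.77. All 5 HNRNPDL probe sets detected in both lines were higher, from 0.63 to 1.30.

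HNRNPU and HNRNPK were lower in CL1-5. HNRNPK, a KH-domain protein that binds C-rich RNA, had 1499 in CL1-5 against 3064 in CL1-0, a log2 ratio of -1.03, and its other probe set gave -1.32. HNRNPU, also known as scaffold attachment factor A, had 1154 against 2659, a log2 ratio of -1.20. Its other probe sets were split, with 235603_at at -0.56, 200593_s_at at 0.09, 225805_at at 1.14 and 216855_s_at at 2.18, and averaging all of them gave 0.33. After quantile normalization neither gene was 2-fold lower. HNRNPAB followed with 1485 in CL1-5 against 2485 in CL1-0, a log2 ratio of -0.74, and HNRNPL with 138 against 205, one of -0.57. For 202072_at of HNRNPL it was -1.08. Below 0 as well were HNRNPH3 at -0.39, HNRNPA3 at -0.28, HNRNPD-DT at -0.23, HNRNPA1 at -0.14 and HNRNPH1 at -0.09. The HNRNPD-DT ratio depends on the floor, as its signal was 5.47 in CL1-5, under it, against 8.15 in CL1-0.

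**Figure D4:**
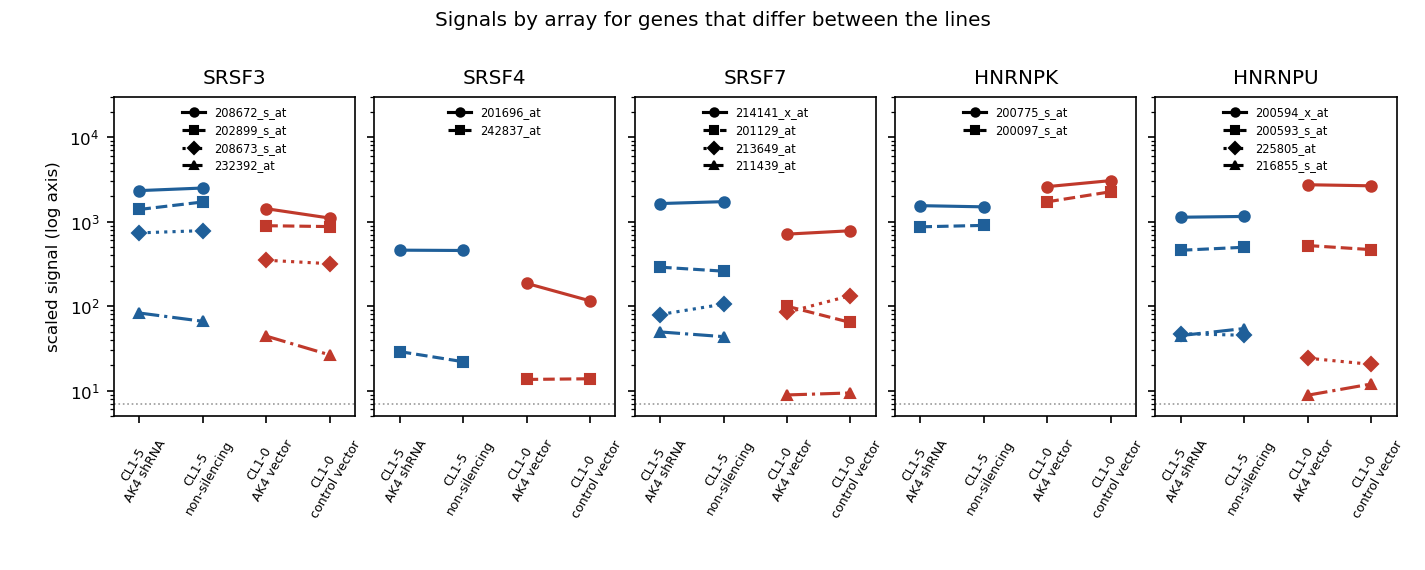
Scaled signal (y axis, log scale) on each of the 4 arrays (x axis) for probe sets of the SR genes past 2-fold between the lines and of HNRNPK and HNRNPU. Lines join the arrays of a cell line and the dotted line is the floor. The drawn probe sets of SRSF3 and SRSF4 are higher, and those of HNRNPK lower, on both CL1-5 arrays than on both CL1-0 arrays, by amounts that vary between arrays, and the HNRNPU probe sets disagree.

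Probe sets of 1 gene could disagree widely between the lines. In 15 of 26 member genes with more than 1 probe set over the floor the log2 ratios spanned 1 or more, or 57.7%, near the 50.3% of all such genes. The largest spans were 3.39 for HNRNPU, 3.13 for HNRNPD and 3.0 for SRSF1. HNRNPD, also called AUF1, a factor in decay of AU-rich mRNA, had a main ratio of 0.21, with 2.57 for 221480_at, where the signal was 141 in CL1-5 against 23.7 in CL1-0, and -0.56 for 213359_at. HNRNPLL, a paralogue of HNRNPL, had 0.23 in its main probe set and -2.37 in 225385_s_at. HNRNPA0 had -0.14 in its main probe set and -2.22 in 201055_s_at. HNRNPC ran from -0.59 for 212626_x_at to 1.49 for 227110_at, and HNRNPA3 down to -1.5 for 211929_at. HNRNPR had 0.08 in its main probe set and 1.17 in 208765_s_at, and HNRNPUL1 had 0.34 and -0.68. SRSF10 ran from -0.31 for 204299_at to 0.89 for 210178_x_at.

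RNA quality differed along with the lines. For beta-actin, signal at the 3' end over signal at the 5' end was 1.34 in CL1-5 with non-silencing shRNA and 6.04 in CL1-0 with control vector. For GAPDH it was 1.04 and 1.25. On the treated arrays the beta-actin value was 1.61 with AK4 shRNA and 6.54 with AK4 vector. The GAPDH value there was 1.07 and 1.54, so it also differed within CL1-0. The part of RNA quality in the spread of probe sets within a gene was not tested. Between the lines the keratins KRT18 and KRT8 and the type II marker LAMP3 differed too, and their part was not tested. Line, culture and array cannot be told apart.

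Other genes of splicing were read from lists of known members. The core spliceosome, the machine that cuts and joins RNA, had 61 measured genes. None passed 2-fold with AK4 shRNA, and on the AK4 vector array 1 was higher, PRPF6 at 1.15, and 1 lower, SF3B4 at -1.01, where 3.22% and 1.17% of all genes were. Between the lines 4 were at least 2-fold higher in CL1-5 and 10 lower, where 17.1% and 14.2% of all genes were, with a median of -0.13, and the largest ratios were those of BCAS2 at -2.11 and SF3A2 at -2.04, with EFTUD2 at 1.65 among the higher genes. The core list thus lay below the SR genes in median between the lines.

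SR protein kinases had 7 measured genes, none past 2-fold in either AK4 comparison. The largest ratios were those of SRPK2 at -0.43 and CLK1 at 0.32 with AK4 shRNA, and of CLK1 at -0.62 and CLK2 at 0.34 on the AK4 vector array. CLK1, which releases SR proteins from nuclear speckles, had 272 with AK4 shRNA against 218 with non-silencing shRNA, and 87.7 on the AK4 vector array against 135 on the control array. CLK1 was thus higher with AK4 shRNA and lower on the AK4 vector array, below 2-fold in both. AK4 itself was not higher on the AK4 vector array. Between the lines SRPK3 was higher in CL1-5 at 1.92, with 32.7 against 8.63, and SRPK2 lower at -1.23. Of all genes 17.1% were at least 2-fold higher and 14.2% lower.

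SR-related proteins had 25 measured genes. None passed 2-fold in the AK4 comparisons, where the largest ratios were those of PPIG at -0.58 and SCAF11 at 0.43 with AK4 shRNA and of ARGLU1 at 0.67 and SCAF4 at -0.63 on the AK4 vector array. In CL1-5 against CL1-0, 1 was at least 2-fold higher, RSRC1 at 1.63, and 6 were lower, SRRM2 at -1.55 and PPIG at -1.47 among them, against the same 17.1% and 14.2% of all genes. Their median between the lines was -0.38, against 0.50 for the SR genes.

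The other splicing regulators had 45 measured genes between the lines, 3 at least 2-fold higher in CL1-5 and 7 lower, beside 17.1% and 14.2% of all genes. MATR3, a nuclear matrix protein, was at 2.81 and MBNL2 at 1.76, while the neuronal regulator RBFOX3 was under the floor in CL1-5 and at -2.67. RBM4 was the only one of 44 past 2-fold on the AK4 vector array, at 2.01, with 99.8 against 24.8. Of all genes 3.22% were higher there and 1.17% lower. Of 41 measured with AK4 shRNA none passed, and the largest ratios were those of ESRP1 at 0.45, with signals of 9.74 and 7.11 near the floor, and KHDRBS3 at -0.34.

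Of 9 measured genes of nonsense-mediated decay, MAGOHB, of the exon junction complex, was the only one past 2-fold on the AK4 vector array, at 1.60. Of all genes 3.22% passed upward there and 1.17% downward. With AK4 shRNA none passed and the largest ratios were RBM8A at -0.33 and SMG6 at -0.23. Between the lines UPF2 at -1.54 and RBM8A at -1.12 were lower in CL1-5, where 14.2% of all genes were at least 2-fold lower. Of 6 genes that import or methylate splicing factors, none passed 2-fold in either AK4 comparison, with CARM1 at -0.53 and PRMT1 at -0.48 largest on the AK4 vector array and PRMT1 at -0.38 and TNPO3 at -0.17 with AK4 shRNA. TNPO1, the import receptor of HNRNPA1, was at -1.52 in CL1-5 against CL1-0 and CARM1 at -1.5, beside the same 14.2% of all genes.

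**Figure D5:**
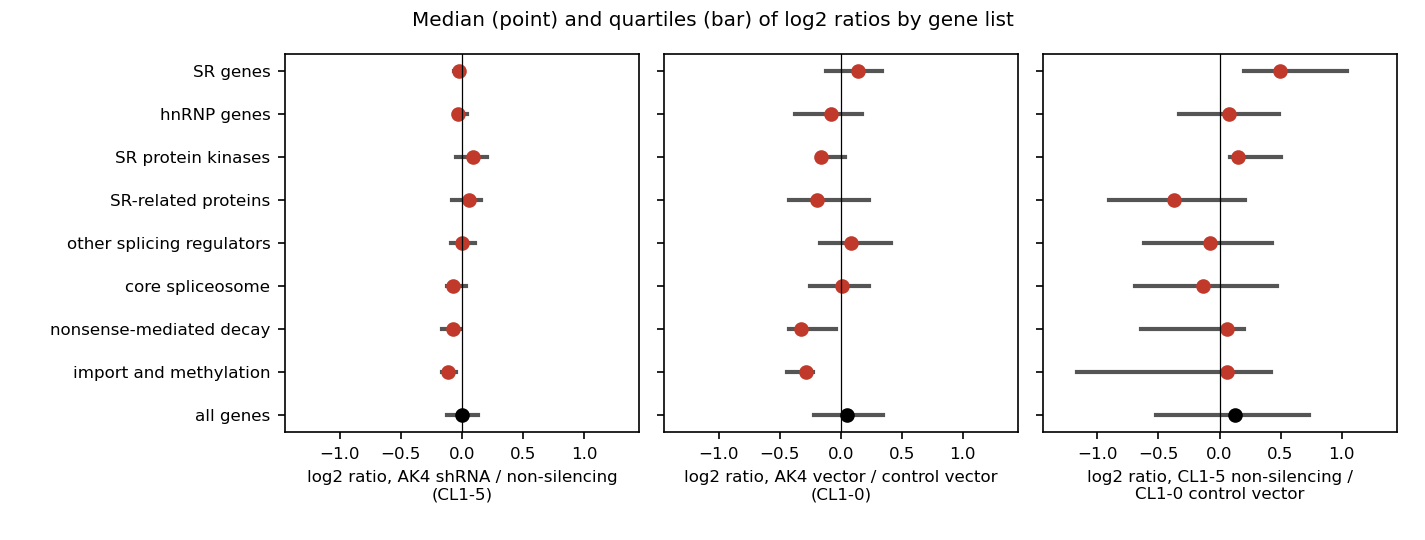
Median (point) and quartiles (bar) of the log2 ratio (x axis) over the measured genes of each list (y axis) in 3 comparisons, with all genes at the bottom. With AK4 shRNA the medians sit close to 0, and between the lines the SR genes have the highest median at 0.50.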

How the data were processed

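RNA of 4 cultures was read on Affymetrix HG-U133 Plus 2.0 arrays, from 6 ug of total RNA per the labels. The authors deposited linear intensities, and MAS5 is named per the submitters' processing notes. What it was used for, its version and scaling are not stated. The columns had medians of 6.23 and 6.07 in CL1-0 and 15.3 and 15.6 in CL1-5, with no detection calls.

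Arrays were rescaled to a common mean with 2% trimmed at each end, over all but 62 control probe sets. Values under the 40th percentile of all scaled values (6.94) were set to it before log2. Probe sets with 1 symbol in the platform annotation were named (41097, with 1801 of several symbols and 11777 of none), and 99.9% of symbols were updated through the gene identifier. A gene was read from its brightest such probe set and was measured if 1 or both of the arrays compared exceeded the floor. With 1 array a group, ratios past 2-fold or 1.5-fold were counted, with no test. The members, lists and the naming rule were chosen with earlier results of these data known. Given in full were AK4, members past 2-fold in any comparison, the 4 highest and 4 lowest members of each, and members whose probe sets differed by 1 or more. Of other lists, up to 4 members past 2-fold were given, or the 2 largest. Counting was checked on simulated data. Python 3.11.15, numpy 2.4.6, pandas 2.3.3 and statsmodels 0.14.6 were used. The 8 alternatives covered scaling, floor, probe set choice and loess.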

Additional observations from a re-analysis of the deposited data

How the results depend on the processing

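No paired analysis was possible because each group was 1 array. With AK4 shRNA the count of member genes past 2-fold was 0 under all 8 alternatives, and the SR median was 0.11 when _x_at and _s_at probe sets were left out. On the AK4 vector array 1 member (HNRNPL, lower) passed 2-fold after averaging each gene's probe sets. With _x_at and _s_at left out, 2 passed (HNRNPA2B1 and HNRNPR, higher), of 24 measured. HNRNPR was then read from a probe set under the floor on the control array. The medians there were 0.29 for members, 0.66 for SR and 0.17 for hnRNP genes, and averaging gave an SR median of 0.038.

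Between the lines, without rescaling, the median of all genes was 0.83 and 83.7% of them were above 0. There 18 members were at least 2-fold higher and 0 lower, with medians of 1.09 for members, 1.37 for SR and 0.95 for hnRNP genes. Quantile normalization gave medians of 0.41, 0.65 and 0.41 in the same order and loess 0.52, 0.74 and 0.49, with 0 members at least 2-fold lower under each. Centring on all genes gave 0.091, 0.37 and -0.048. A floor at the 60th percentile gave an SR median of 0.64. Averaging probe sets, 2 members were higher and 1 lower, 3 in all, and the hnRNP median was -0.17. With _x_at and _s_at left out, 10 were higher and 0 lower, with medians of 0.34 for members and 1.20 for SR genes. The share of all genes past 2-fold is not given for the alternatives, so no background stands beside the member counts in this section. HNRNPA2B1 reversed to -0.27 on averaging. HNRNPU reversed to 0.33 on averaging and to 1.14 with _x_at and _s_at left out. Of 688 gene values under alternatives, 622 moved by no more than the pooled SD between probe sets over all genes. That SD was 0.22 in CL1-5, 0.41 in CL1-0 and 0.85 between the lines, a loose limit. Values far above the floor do not depend on its setting, so the count is no test of robustness. Relative to the median of all genes, the SR median was 0.37 as reported and 0.30 to 1.05 under the alternatives, highest with _x_at and _s_at left out. The hnRNP median was -0.048 as reported and -0.35 on averaging to 0.47 after quantile normalization. The cause of these shifts was not tested. Dim probe sets have ratios set in part by the floor.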

Other observations

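Some member probe sets past 2-fold in 1 comparison were under the floor on 1 of the arrays compared, so their ratio depends on the floor. For SRSF3, 235324_at had 79.7 on the CL1-5 non-silencing array against 5.69 on the CL1-0 control array. For SRSF11, 213742_at had 45.3 in CL1-5 against 4.17 in CL1-0. For HNRNPR, 232004_at had 20.3 on the AK4 vector array against 6.69 on the control array, and 18.5 on the CL1-5 non-silencing array. In CL1-5, 213742_at of SRSF11 had 30.1 with AK4 shRNA against 45.3 with non-silencing shRNA, a log2 ratio of -0.59.

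The promoter windows of member genes had a median GC content of 65%, against 62.3% for all protein-coding genes in the table. The SRSF8 windows were the lowest of the members, at 38% and 36%.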
